A study of Mus musculus with 221 samples.

Results

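The genes described here are 10 members of 3 signalling routes, endothelin (Ednrb), FGF (Fgfr1, Fgfr2, Fgfr3, Spry1, Spry2, Etv5) and LIF to STAT3 (Lifr, Il6st, Stat3). They were chosen by symbol, and all 10 were found among the 23244 features of the expression table. Their levels were followed over 221 single cells, all from the medial neocortex of E18.5 embryos of the mouse strain C57BL/6J, close to birth. The cells came from 2 suspensions, each made from 8 dissected neocortices, with 122 cells in pool 1 and 99 in pool 2. The series is about radial glia that depend on Hopx, and no animal was treated or mutant, so the comparisons are between kinds of cell within the same pools.

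Endothelins are secreted peptides that act through G protein-coupled receptors, and the type B receptor encoded by Ednrb is known from neural crest cells and from glia. FGFs bind receptor tyrosine kinases and switch on the RAS and MAP kinase cascade, which induces ETS transcription factors such as Etv5 and feedback inhibitors of the Sprouty family. LIF and its relatives bind a pair of chains encoded by Lifr and Il6st, which activates JAK kinases and the transcription factor STAT3, a known driver of astrocyte genes in the late embryonic cortex.

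Levels are in TPM, transcript shares scaled to 1000000 per cell, so that levels of different genes may be set side by side. No value is 0. All features without signal in a cell share its lowest value, the floor, which lay between 1.33 and 2.998 TPM, and a gene was taken as detected in a cell when it lay above that floor. Between 2146 and 6727 features were detected per cell (median 4035). Read numbers are not given, so the depth of each cell is unknown, and a gene at the floor may be present below detection.

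Cells were sorted into classes by markers other than the 10 genes. Radial glia are the stem cells of the developing cortex, and a cell was called radial glia-like when it had at least 5 of 8 radial glia markers (Slc1a3, Fabp7, Hes5, Sox2, Sox9, Vim, Mfge8 and Aldoc) above the floor and no Eomes. Such cells numbered 35 (15.8% of the cells), 16 in pool 1 and 19 in pool 2. Eomes-positive cells, with the transcription factor of intermediate progenitors, numbered 32 (17 and 15), excitatory-like neurons 122 (72 and 50) and interneuron-like cells 31 (17 and 14). The remaining cell had markers of oligodendrocyte precursors. Cell names end in A or B, a mark the labels do not explain. It was A in 30 of 35 radial glia-like cells and in 62 of 122 excitatory-like neurons, so class and mark are partly confounded. The median number of detected features was 4249 in radial glia-like, 4262.5 in Eomes-positive, 4021 in excitatory-like and 3642 in interneuron-like cells.

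The radial glia-like class was only partly clean. Some markers that had no part in the sorting went with its name. Hopx was detected in 23 of 35 radial glia-like, 17 of 32 Eomes-positive and 38 of 122 excitatory-like neurons. Tnc, an extracellular matrix protein of radial glia, was detected in 18, 8 and 4. Pax6, also kept out of the sorting, was in 16, 26 and 21, so its share was highest in Eomes-positive cells. Further radial glia markers kept as checks are not reported here. The neuronal transcription factor Neurod6, however, was detected in 34 of the 35, with a mean level of 1095 TPM, while excitatory-like neurons averaged 2016 TPM. It was below 100 TPM in 9 radial glia-like cells, 3 in pool 1 and 6 in pool 2, and comparisons with these 9 cells are given beside those with all 35. The 6 pan-neuronal markers kept as checks summed to 2794 TPM in radial glia-like cells (4.93 to 6711 per cell) and 4112 TPM in excitatory-like neurons. In the 16 radial glia-like cells with only 5 or 6 radial glia markers they summed to 4422 TPM, above excitatory-like neurons. In the 19 with 7 or 8 the sum was 1423 TPM. Whether the neuronal transcripts come from the cells themselves or from a neuron caught in the same chamber was not tested, and no doublet caller was run. Of other cell types, all 6 endothelial and all 6 meningeal markers were at the floor in all 35 cells. Of 6 pericyte markers 4 were detected, with Pdgfrb and Kcnj8 at the floor, and their sum was 18.8 TPM (0 to 315 per cell, 40.8 TPM in pool 1 and 0.31 TPM in pool 2), against 19.9 TPM in excitatory-like neurons (0 to 340). Of 6 microglia markers 3 were detected, with P2ry12, Csf1r and Fcrls at the floor, and they summed to 0.69 TPM (0 to 18.3) against 0.66 TPM (0 to 50.4). The 6 oligodendrocyte precursor markers summed to 223 TPM in radial glia-like cells (0 to 2222 per cell), with Sox10 and Gpr17 at the floor, against 12.8 TPM in excitatory-like neurons (0 to 340). The 5 astrocyte markers measured summed to 91.4 TPM (0 to 957) against 4.46 TPM (0 to 155), with S100b at the floor. Sums are above the floor, and their part in the results below was not tested.

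The bases just upstream of the RefSeq transcript start sites of Ednrb, Il6st and Stat3 (assembly GRCm38.p6, 250 bases each, read 5′ to 3′ on the strand of the gene) are shown because these are the 3 members that passed the test between the 9 radial glia-like cells with little Neurod6 and excitatory-like neurons. The windows lie at chr14:103843702-103843951 (minus strand) for Ednrb, chr13:112463820-112464069 (plus strand) for Il6st and chr11:100939541-100939790 (minus strand) for Stat3. That of Ednrb lies wholly within the RefSeq span of its gene given below, and that of Stat3 overlaps the upstream end of its span. Both thus precede a start site inside the span, while the Il6st window lies outside its gene. Capitals mark the ETS core CCGGAA, read on either strand.
Ednrb: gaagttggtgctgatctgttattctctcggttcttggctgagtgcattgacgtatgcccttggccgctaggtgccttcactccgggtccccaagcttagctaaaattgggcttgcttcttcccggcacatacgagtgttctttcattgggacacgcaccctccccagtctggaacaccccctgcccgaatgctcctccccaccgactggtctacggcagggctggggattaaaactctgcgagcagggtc
Il6st: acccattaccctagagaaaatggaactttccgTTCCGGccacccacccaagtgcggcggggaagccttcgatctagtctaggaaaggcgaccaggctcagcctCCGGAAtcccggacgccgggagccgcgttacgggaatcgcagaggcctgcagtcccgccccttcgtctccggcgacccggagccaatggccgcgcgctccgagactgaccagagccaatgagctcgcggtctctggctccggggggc
Stat3: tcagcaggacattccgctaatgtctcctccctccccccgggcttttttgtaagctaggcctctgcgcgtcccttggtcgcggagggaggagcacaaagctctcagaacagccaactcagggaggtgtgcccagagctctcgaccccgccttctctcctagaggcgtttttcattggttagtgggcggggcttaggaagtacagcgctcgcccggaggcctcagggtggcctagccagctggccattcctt
RefSeq windows were at hand for 9 of the 10 members, 12 windows in all. Fgfr1 has no entry. The STAT motif TTCNNNGAA, which reads the same on both strands, was in 0 of the 12 windows and in 7.02% of the 32851 promoter windows of the same length in the genome. The ETS core was in 1 of 12, that of Il6st, which held it at 218 and 147 bases before the start site, and in 12.03% of all promoter windows. These are matches of letters in a short window and say nothing of what binds there.

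Across the 10 genes, more members were detected per cell in radial glia-like cells than in the other classes. The number of members detected per cell had a median of 3 in radial glia-like cells (0 to 8, mean 2.94), against a median of 1 in Eomes-positive (0 to 4), excitatory-like (0 to 4) and interneuron-like cells (0 to 5). With both pools together, the share of cells with detection was highest in radial glia-like cells for each of the 10 genes, though for Spry1 it was 14.3% against 13.1% in excitatory-like neurons. These shares describe the cells and were given no test.

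**Figure D1:**
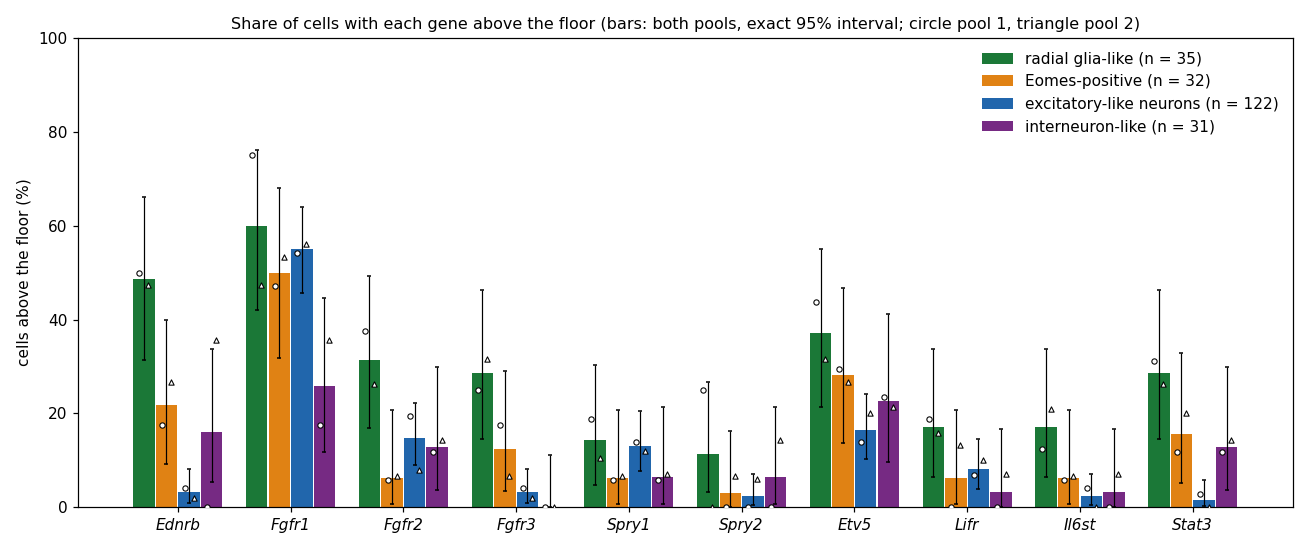
Share of cells (y axis, %) in which each gene (x axis) was above the floor, in radial glia-like, Eomes-positive, excitatory-like and interneuron-like cells. Bars are both pools together with exact 95% intervals, and open symbols are the single pools. Ednrb stood at 48.6% of the radial glia-like class and 3.28% of the excitatory-like one, while Fgfr1 stood at 60.0% and 54.9%.

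Levels were compared with limma on the mean log2(TPM + 1) of each class in each pool, so that n = 2 pools per class. Such a mean joins the share of cells with the gene and the level in those cells. A gene passed when its adjusted p (Benjamini-Hochberg, over 10719 features) was below 0.05 and its log2 difference was 1 or more, up or down. Features were tested if above the floor in at least 10 of the 221 cells. Il6st (13 cells, 6 radial glia-like), Fgfr3 (18 and 10) and Spry2 (10 and 4) met this only with radial glia-like cells counted. The p-values and calls of these genes for radial glia-like cells are thus no support independent of that filter. With all 35 radial glia-like cells, limma called 0 of 10 members against excitatory-like neurons, where 0.084% of all features were called. It called 0 of 10 against Eomes-positive cells (0.103% of all features) and 0 of 10 against interneuron-like cells (1.11%). Between Eomes-positive and excitatory-like neurons it called 0 of 10 (0.0187%). At an unadjusted p below 0.05 there were 4 members in radial glia-like against excitatory-like neurons (Ednrb, Fgfr3, Il6st and Stat3), beside 914 of all features (8.53%). There were 3 against Eomes-positive cells (Ednrb, Fgfr2 and Fgfr3), beside 10.2% of all features, and 4 against interneuron-like cells (Ednrb, Fgfr1, Fgfr3 and Il6st), beside 13.4%. Between Eomes-positive and excitatory-like neurons there was 1 (Stat3), beside 9.64%, so the members' share there is close to that of all features. The median log2 difference of the 10 members was 0.57 for radial glia-like cells over excitatory-like neurons, where the median of all features was -0.04.

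With the 9 radial glia-like cells that had Neurod6 below 100 TPM, the same test called 3 of 10 members against excitatory-like neurons (Ednrb, Il6st and Stat3, all higher), where 4.53% of all features were called. It called 1 against Eomes-positive cells (Ednrb), where 0.709% were called. Against interneuron-like cells it called 4 (Ednrb, Fgfr3, Il6st and Stat3), where 5.51% were called. Of these members, Il6st and Fgfr3 entered the test only with radial glia-like cells counted. The median log2 difference of the members against excitatory-like neurons was then 1.47, beside -0.14 for all features. Pool 1 gives only 3 of these cells. The oligodendrocyte precursor markers summed to 416 TPM and the astrocyte markers to 252 TPM in the 9 cells, both above their levels in all 35.

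**Figure D2:**
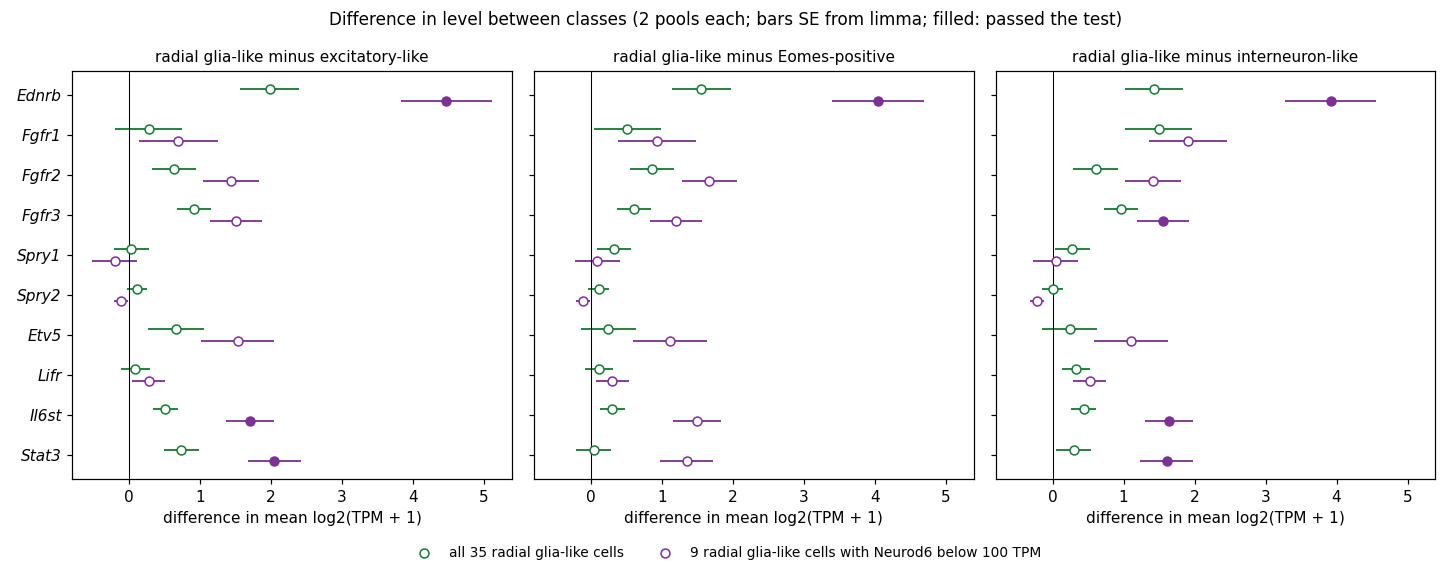
Difference in mean log2(TPM + 1) (x axis) of each gene (y axis) for radial glia-like minus excitatory-like, Eomes-positive and interneuron-like cells. Green is all 35 radial glia-like cells, purple the 9 with Neurod6 below 100 TPM, bars are SE from limma over 2 pools, and filled symbols passed the test. Ednrb lies farthest right in the first panel, at 1.98 and 4.47.

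Ednrb, the endothelin receptor type B, showed the widest gap of the 10 between radial glia-like cells and excitatory-like neurons. Against interneuron-like cells Fgfr1 was wider, at a log2 difference of 1.49 against 1.43 for Ednrb. It was detected in 17 of 35 radial glia-like cells (48.6%, with an exact 95% interval of 31.4 to 66.0%), 7 of 32 Eomes-positive cells (21.9%, 9.28 to 40.0%) and 4 of 122 excitatory-like neurons (3.28%, 0.90 to 8.18%). The mean level was 48.8 TPM in pool 1 and 64.3 TPM in pool 2 for radial glia-like cells, 7.71 TPM in each pool for Eomes-positive cells, and 6.56 and 1.79 TPM for excitatory-like neurons. The pools of radial glia-like cells were thus both above the pools of every other class. Among the radial glia-like cells with a signal the lowest had 1.75 TPM, the median cell 71.5 TPM and the highest 465 TPM, and the remaining 18 were at the floor. The log2 difference against excitatory-like neurons was 1.98 ± 0.41 (SE), 2.25 in pool 1 and 1.71 in pool 2, with a limma adjusted p of 0.0948. Among cells with the mark A it was 1.87. Against Eomes-positive cells it was 1.56 ± 0.41 (limma adjusted p = 0.203).

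In the 9 radial glia-like cells with little Neurod6, Ednrb was detected in 7, from 12.5 to 465 TPM, with a mean of 157 TPM. It was 4.47 ± 0.64 log2 units above excitatory-like neurons (limma adjusted p = 0.0114), 4.05 ± 0.64 above Eomes-positive cells (0.0364) and 3.92 ± 0.64 above interneuron-like cells (0.0136). Olig1, a transcription factor of the oligodendrocyte lineage, went along with it: Ednrb was detected in 8 of 9 radial glia-like cells with Olig1 and in 9 of 26 without. Stat3 was found in 6 and 4 of these cells and Spry2 in 4 and 0. The cells with Olig1 were also low in Neurod6, with a median of 22.7 TPM against 1206 TPM, so leaving them out also takes out cells with little Neurod6. When the radial glia-like cells with Olig1, Olig2 or Pdgfra were left out, an alternative added after the values were seen, the difference against excitatory-like neurons was 1.05 (26 cells, limma adjusted p = 0.832).

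In interneuron-like cells Ednrb differed between the pools. It was detected in 0 of 17 cells of pool 1, which allows a share of up to 17.6% when taken as 3 cells of 17, and in 5 of 14 of pool 2, with means of 2.0 and 26.0 TPM. Those 5 include cells only 0.007 and 0.39 log2 units above the floor. By mark, Ednrb was found in 4 of 11 interneuron-like cells with A and 1 of 20 with B. A cells were 3 of 17 in pool 1 and 8 of 14 in pool 2, so pool and mark are partly confounded here. The log2 difference of radial glia-like against interneuron-like cells was accordingly 2.38 in pool 1 and 0.48 in pool 2. In RefSeq Ednrb occupies chr14:103814615-103844508 on the minus strand.

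**Figure D3:**
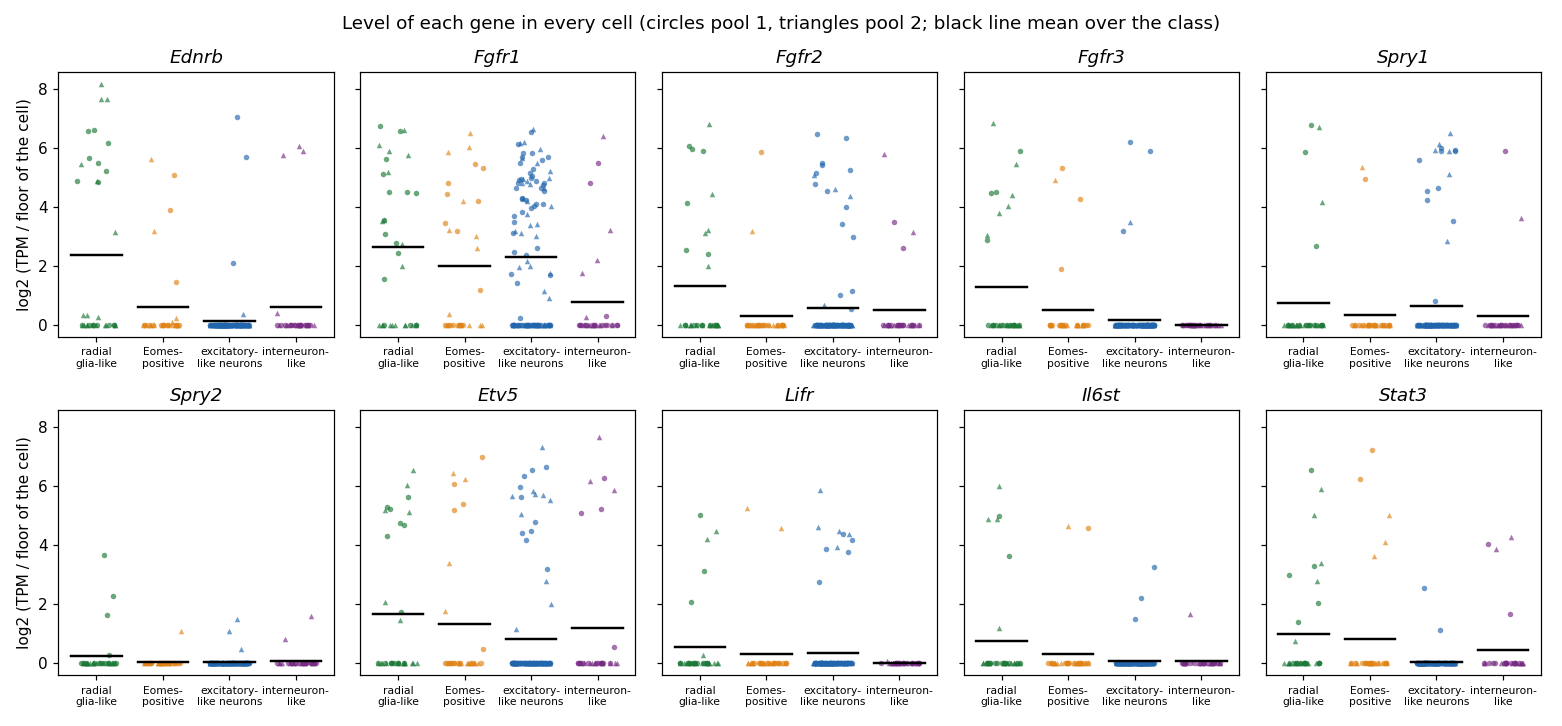
Level of each gene in every cell of the 4 classes (x axis), as log2 of TPM over the floor of the cell (y axis), where 0 is the floor. Circles are pool 1, triangles pool 2, and the black line is the mean of the class. Most cells lie at the floor for every gene but Fgfr1, and the Ednrb line is higher in radial glia-like cells than in the other classes.

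The 3 FGF receptors had different distributions. Fgfr1 (chr8:25518759-25575718, plus strand) was the most widely detected member, in 21 of 35 radial glia-like, 16 of 32 Eomes-positive, 67 of 122 excitatory-like and 8 of 31 interneuron-like cells. Its mean level was 37.0, 26.7, 28.7 and 12.4 TPM in the same order of classes. The first 3 classes were close: the log2 difference of radial glia-like against excitatory-like neurons was 0.28 ± 0.47, with opposite signs in the pools (0.65 and -0.10). Against interneuron-like cells it was 1.49 ± 0.47, 2.05 in pool 1 and 0.93 in pool 2, with a limma adjusted p of 0.155.

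Fgfr2 (chr7:130162451-130266808, minus strand) was detected in 11 of 35 radial glia-like cells, 2 of 32 Eomes-positive cells and 18 of 122 excitatory-like neurons. Mean levels in radial glia-like cells were 24.6 TPM in pool 1 and 12.98 TPM in pool 2. In Eomes-positive cells they were 7.88 and 2.71 TPM, in excitatory-like neurons 12.2 and 4.58 TPM. Pool 1 was higher than pool 2 in these 3 classes. Interneuron-like cells, with the gene in 4 of 31, had the reverse order, at 3.70 and 9.71 TPM. Radial glia-like cells had the highest mean within each pool. The log2 difference against Eomes-positive cells was 0.86 ± 0.31 with all radial glia-like cells (limma adjusted p = 0.363) and 1.67 ± 0.39 with the 9 low in Neurod6 (0.0705).

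Fgfr3 (chr5:33721724-33737068, plus strand) was rare outside radial glia-like cells. It was found in 10 of 35 radial glia-like cells (28.6%, 14.6 to 46.3%), 4 of 32 Eomes-positive cells, 4 of 122 excitatory-like neurons (3.28%, 0.90 to 8.18%) and 0 of 31 interneuron-like cells, which allows a share of up to 9.68% when taken as 3 cells of 31 (exact upper limit 11.2%). Radial glia-like means were 14.1 TPM in pool 1 and 18.0 TPM in pool 2, against 5.60 and 2.15 TPM in excitatory-like neurons. The log2 difference against excitatory-like neurons was 0.91 ± 0.24 (limma adjusted p = 0.206). Against interneuron-like cells, where the gene was listed at the floor throughout, the limma adjusted p was 0.0680 with all 35 radial glia-like cells and 0.0419 with the 9 low in Neurod6. The gene reached the filter of the test only with radial glia-like cells counted. Like Ednrb, Fgfr3 was more often detected beside Olig1, in 7 of 9 radial glia-like cells with it and 3 of 26 without.

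Of Etv5, Spry1 and Spry2, the members known to be induced by FGF signalling, Etv5 had the highest share in radial glia-like cells. Etv5, an ETS family transcription factor (chr16:22381313-22439570, minus strand), was detected in 13 of 35 radial glia-like, 9 of 32 Eomes-positive, 20 of 122 excitatory-like and 7 of 31 interneuron-like cells. Its mean level did not follow that order, at 21.9, 25.1, 15.7 and 30.9 TPM. The difference of radial glia-like against excitatory-like neurons was 0.66 ± 0.39 on the log2 scale (0.98 in pool 1, 0.34 in pool 2, limma adjusted p = 0.713).

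Spry1 and Spry2 are inhibitors of receptor tyrosine kinase signalling. Spry1 (chr3:37639947-37644599, plus strand) was detected in 5 of 35 radial glia-like, 2 of 32 Eomes-positive, 16 of 122 excitatory-like and 2 of 31 interneuron-like cells, with means of 15.4, 5.68, 12.5 and 6.46 TPM. Its log2 difference of radial glia-like against excitatory-like neurons was 0.03 ± 0.24 and changed sign between the pools. Spry2 (chr14:105891947-105896819, minus strand) was the least often detected of the 10, in 10 of all 221 cells: 4 of 35 radial glia-like, 1 of 32 Eomes-positive, 3 of 122 excitatory-like and 2 of 31 interneuron-like cells. The 4 radial glia-like cells with Spry2 were all in pool 1 and reached at most 23.9 TPM, and the 3 excitatory-like neurons with it were all in pool 2.

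Stat3, the transcription factor of the LIF route (chr11:100886806-100939594, minus strand), was detected in 10 of 35 radial glia-like cells (28.6%, 14.6 to 46.3%), 5 of 32 Eomes-positive cells (15.6%, 5.28 to 32.8%) and 2 of 122 excitatory-like neurons (1.64%, 0.20 to 5.80%). Mean levels were 14.03 and 10.05 TPM in the pools of radial glia-like cells, 24.9 and 8.18 TPM in those of Eomes-positive cells, and 2.04 and 1.78 TPM in those of excitatory-like neurons. Both progenitor classes were thus above excitatory-like neurons in each pool, but the Eomes-positive mean of pool 1 rests largely on a cell with 261 TPM. Interneuron-like cells had Stat3 in 4 of 31 (12.9%), with means of 4.20 and 6.15 TPM, so it was not confined to progenitors. Radial glia-like cells were above them by 0.30 ± 0.25 on the log2 scale (limma adjusted p = 0.640). The log2 difference against excitatory-like neurons was 0.74 ± 0.25 for radial glia-like cells (limma adjusted p = 0.372) and 0.70 ± 0.25 for Eomes-positive cells (0.387). In the 9 radial glia-like cells low in Neurod6 it was 2.04 ± 0.37 (limma adjusted p = 0.0198).

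Il6st, the signalling chain shared by the receptors of the IL6 family (chr13:112464070-112506860, plus strand), was rare outside radial glia-like cells. It was detected in 6 of 35 radial glia-like cells, 2 of 32 Eomes-positive, 3 of 122 excitatory-like and 1 of 31 interneuron-like cells, with means of 8.99, 4.26, 2.05 and 2.09 TPM. The highest excitatory-like cell had 16.5 TPM, while the median of the 6 radial glia-like cells was 47.8 TPM. The log2 difference against excitatory-like neurons was 0.51 ± 0.18 with all radial glia-like cells (limma adjusted p = 0.373) and 1.71 ± 0.34 with the 9 low in Neurod6, of which 4 had the gene (0.0277). Il6st, too, reached the filter of the test only with radial glia-like cells counted.

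Lifr, the receptor chain that pairs with that of Il6st (chr15:7090610-7197489, plus strand), was detected in 6 of 35 radial glia-like, 2 of 32 Eomes-positive, 10 of 122 excitatory-like and 1 of 31 interneuron-like cells. Its mean was 5.70 TPM in radial glia-like and 4.88 TPM in excitatory-like neurons, and the log2 difference was 0.09 ± 0.20. Radial glia-like and excitatory-like levels of Lifr did not differ beyond the spread between pools.

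Among radial glia-like cells and excitatory-like neurons, every member but Spry1 had its highest share in the cells with 7 or 8 radial glia markers. Over excitatory-like and radial glia-like cells together, Ednrb was found in 0 of 24 cells with 0 or 1 marker, 0 of 46 with 2, 4 of 52 with 3 or 4, 2 of 10 with 5, 1 of 6 with 6 and 14 of 19 with 7 or 8. For Stat3 these counts were 0, 0, 2, 1, 0 and 9, and for Il6st 2, 0, 1, 0, 0 and 6. Below 7 markers Il6st showed no order, and its share was 8.33% at 0 or 1 marker against 31.6% at 7 or 8. The Fgfr1 counts were 16, 18, 33, 5, 1 and 15. Its share was 66.7% at 0 or 1 marker, 16.7% at 6 and 78.9% at 7 or 8, without a steady rise. Spry1, at 4, 7, 5, 1, 1 and 3, had 16.7% at 0 or 1 marker and 15.8% at 7 or 8. At 7 or 8 markers the share was 47.4% for Fgfr2, 36.8% for Fgfr3, 57.9% for Etv5, 26.3% for Lifr and 21.1% for Spry2. For Fgfr3 it was also 33.3% in the 6 cells with 6 markers.

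Within the radial glia-like class, then, the cells at the lower edge of the marker rule differed from those well inside it. The 19 cells with 7 or 8 markers had a median of 4 members per cell and the 16 with 5 or 6 had a median of 1. Astrocyte markers summed to 167 TPM above the floor in the 19 cells and 1.49 TPM in the 16, against 4.46 TPM in excitatory-like neurons. Oligodendrocyte precursor markers summed to 410 TPM in the 19 and 0 TPM in the 16. By these sums and the pan-neuronal one, the 16 cells resembled excitatory-like neurons. The median Neurod6 level was 215 TPM in the cells with 7 or 8 markers, against 834 TPM in those with 6 and 1602 TPM in those with 5. The median number of detected features was 5230 with 8 markers, 4034.5 with 7, 4018 with 6 and 4239.5 with 5, so it was higher in the cells with 8 markers alone. The division at 7 markers was chosen after these values were seen and was given no test here.

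**Figure D4:**
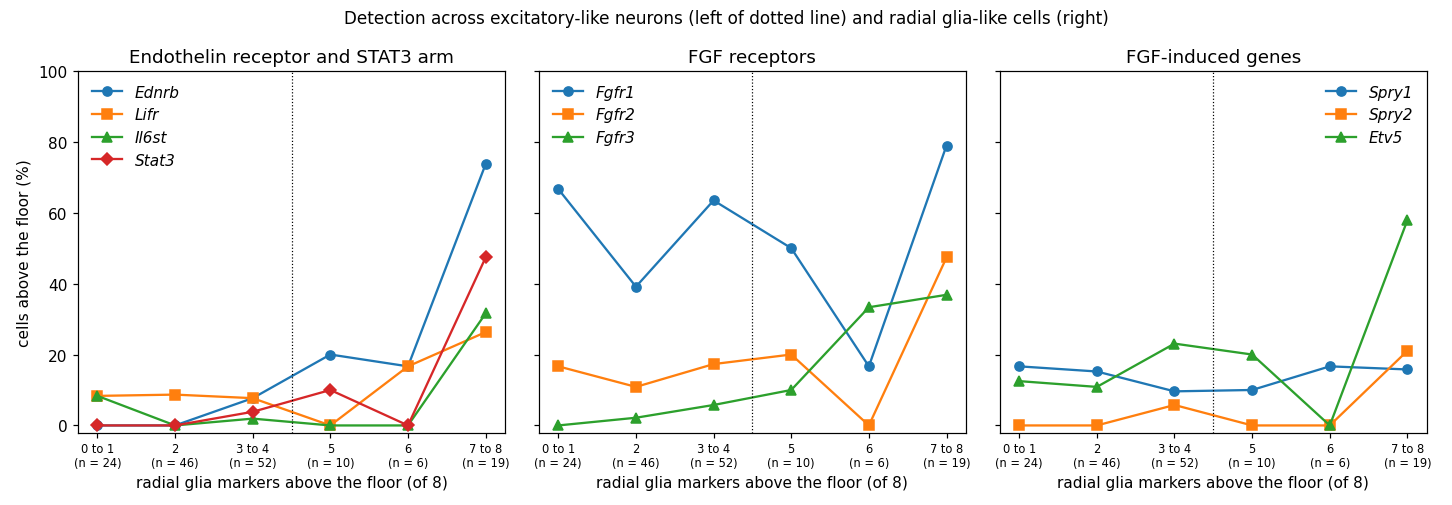
Share of cells with each gene above the floor (y axis, %) by the number of radial glia markers above the floor in the cell (x axis, with cell numbers), over excitatory-like and radial glia-like cells. Ednrb was found in 0 of 24 cells at the left end and 14 of 19 at the right, while Fgfr1 was found in 16 of 24 and 15 of 19.

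Several members were found in the same radial glia-like cell. Ednrb was detected together with Stat3 in 9 radial glia-like cells, and Stat3 without Ednrb in 1. Il6st and Stat3 were found together in 5 cells, Il6st alone in 1 and Stat3 alone in 5. At least 2 of Lifr, Il6st and Stat3 were present in 7 of 35 radial glia-like cells, against 2 of 32 Eomes-positive and 0 of 122 excitatory-like neurons. All 3 FGF receptors were detected in 3 radial glia-like cells and in 0 cells of the other classes. The single shares of these genes were also highest in radial glia-like cells, and how far the joint counts follow from them was not tested. These are counts of cells that share libraries and depth.

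For some members, detection within the radial glia-like class differed between cells with and without Hopx. Among the 23 cells with Hopx and the 12 without, Etv5 was detected in 12 and 1, Ednrb in 13 and 4, Fgfr1 in 17 and 4, Stat3 in 8 and 2, and Il6st in 6 and 0. Fgfr3, in 6 and 4, showed no clear division, with mean levels of 15.4 and 17.8 TPM. The cells with Hopx also had more detected features (median 4587 against 4011), and the part of that in these counts was not tested.

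**Figure D5:**
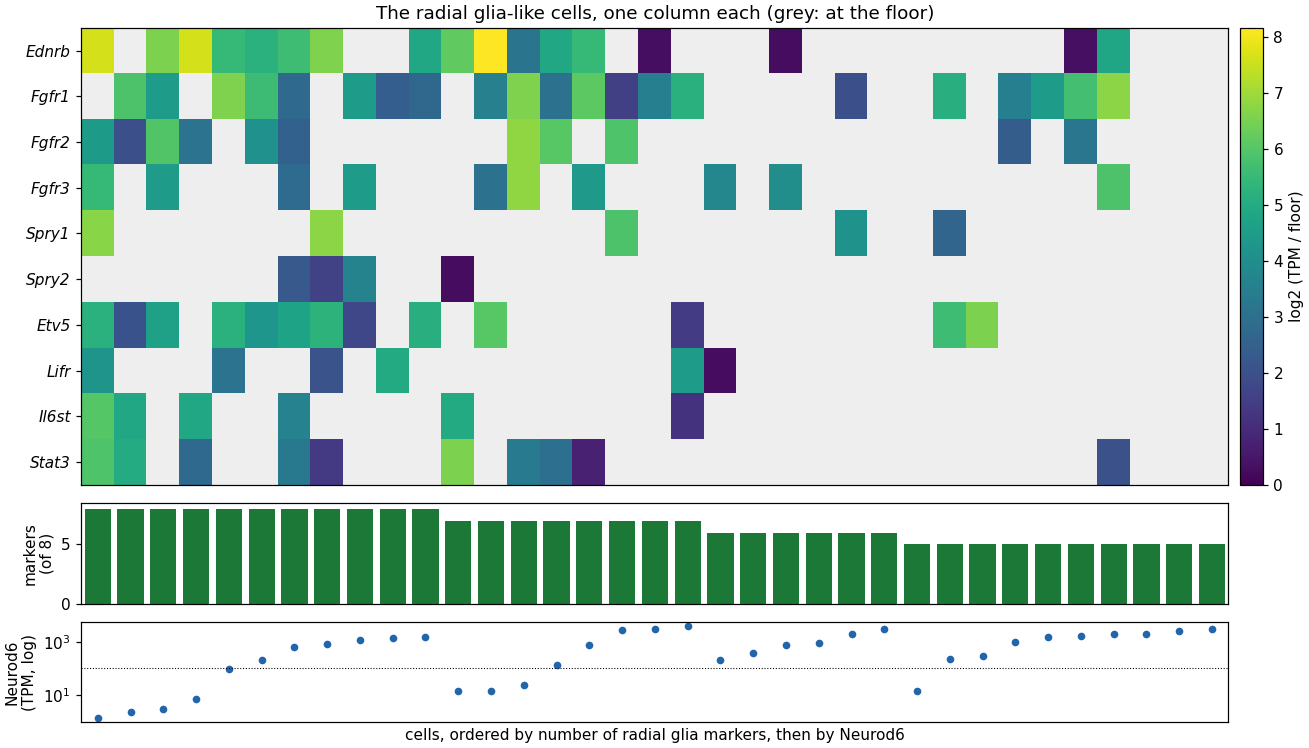
Each of the 35 radial glia-like cells is a column, ordered by the number of radial glia markers and then by Neurod6. Colour gives log2 of TPM over the floor for the 10 genes, with grey at the floor; the lower panels give the marker number (of 8) and Neurod6 in TPM on a log axis, with a dotted line at 100 TPM. Detected members gather in the cells with 7 or 8 markers at the left.

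The Eomes-positive class was also mixed. Of its 32 cells 14 met the radial glia marker rule as well, and Ednrb was detected in 6 of these 14 and in 1 of the other 18. Etv5 was detected in 7 and 2, Fgfr3 in 4 and 0, and Stat3 in 4 and 1. Fgfr1 was found in 7 and 9. Ednrb, Etv5, Fgfr3 and Stat3 were thus found more often in the Eomes-positive cells that carry radial glia markers, a count that was given no test.

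The rest of the pathways was read from 9 gene lists without the 10 members, and none of their genes was called with all 35 radial glia-like cells. Endothelin and FGF ligands were scarce. Edn1, Edn2 and Edn3, the endothelins, were at the floor in all 221 cells, and so were Lif and Cntf. No FGF ligand reached 10 cells, so 0 were tested, and the most frequent, Fgf10 and Fgf18, were each detected in 6 cells. Of the converting enzymes Ece2 was detected in 57 cells, at 28.1 TPM in radial glia-like and 52.8 TPM in excitatory-like neurons.

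Of 19 tested genes of the RAS and MAP kinase core, 0 were called against excitatory-like neurons with either set of radial glia-like cells. Of 5 tested JAK and STAT genes 0 were called, with Jak1 at 29.3 and 22.1 TPM and Jak2 at 27.7 TPM in both classes.

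With the 9 radial glia-like cells low in Neurod6, single genes of the lists passed. Cebpd, a transcription factor that STAT3 is known to induce, was detected in 7 of the 9 cells and in 2 of 122 excitatory-like neurons, a log2 difference of 3.65 ± 0.44 (limma adjusted p = 0.00562), 1 of 9 tested genes of its list. Etv4, a relative of Etv5, was higher by 1.30 ± 0.29 (limma adjusted p = 0.0395), 1 of 11 tested FGF feedback and target genes. Sdc2, a heparan sulphate proteoglycan of the cell surface, was higher by 2.09 ± 0.49 (limma adjusted p = 0.0446), 1 of 10 tested co-receptors. Gfap, the astrocyte filament and a known STAT3 target, was detected in 5 of the 9 cells but missed the threshold against excitatory-like neurons (2.40 ± 0.62, limma adjusted p = 0.0604). Against Eomes-positive cells Cebpd was the 1 listed gene called, higher by 3.47 ± 0.44 (limma adjusted p = 0.0209). Against interneuron-like cells 2 of the 9 STAT3 targets (Cebpd and Gfap) and 2 of the 11 FGF targets (Etv4 and Dusp6) were called.

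Over all 221 cells the features most like each member were ranked by Pearson r of log2(TPM over floor). For Ednrb these were Sall3 (r = 0.635), the sorting marker Sox9 (0.622) and the proteoglycan gene Bcan (0.622). For Il6st they were Stk17b (0.612), Stat3 (0.543) and Arhgap18 (0.525), and for Stat3 they were Il6st, Acsbg1 (0.527) and Cebpd (0.520). The best for Fgfr3 was Gpx8 (0.423). For the other 6 members the best r lay between 0.303 (Fgfr1 with Gpm6b) and 0.407, too weak in sparse values to say more. All of these r are over the same cells and libraries and describe them only.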

How the data were processed

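Single cells were captured with a microfluidic chip (Fluidigm C1) and made into full-length cDNA libraries, per the labels' protocols. The authors deposited TPM values, and the submitters' processing notes name the build mm10, Cufflinks 2.2.1, Bowtie2 2.2.6 and TopHat2 2.0.14, without their roles. Depth is unknown. From the TPM values, cells were put into classes by counts of markers above the floor, in the order other cell types (4 of 6), interneuron (3 of 8), Eomes, radial glia (5 of 8) and excitatory neuron (3 of 8). Mean log2(TPM + 1) per class and pool (8 profiles) was tested with limma 3.58.1 in R 4.3.3 (trend, robust), over 10719 features above the floor in at least 10 cells, leaving out the sorting markers. The 2 pools are independent per the design text, and p-values measure the spread between them. Shares have exact (Clopper-Pearson) 95% intervals, for counting error only, and a count of 0 is given the limit of 3 cells over the cells in the group. The calculation was tested on simulated data. Classes of a pool share their animals; with the pool as a block no call of a member changed, and deviations of the classes from their means correlated between -0.03 and 0.06 across features. The 10 genes, lists and tests were chosen with earlier results of these data known. All 10 genes are named. From each list up to 3 called genes with the largest difference, or else up to 2 with the highest mean TPM, were to be named. Gfap, Dusp6, the ligands and the examples of likeness beyond that rule were named after their values were seen. Symbols were matched through RefSeq synonyms, and Fgf15, Btg2 and Aqp4 were not analysed here. Results for some genes of the lists are not reported here.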

Additional observations from a re-analysis of the deposited data

Results flagged for a closer look

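A single cell outside the 4 classes carried 5 of 6 oligodendrocyte precursor markers and all 8 radial glia markers, with 6271 detected features. It was in no comparison, and its levels of several members were above those usual in neurons. Ednrb was at 213.9 TPM, above all but 3 of the 35 radial glia-like cells. Spry1 was at 72.3 TPM, Stat3 at 24.3 TPM, Il6st at 18.9 TPM and Fgfr2 at 15.9 TPM. Fgfr1 was at the floor of the cell. Neurod6 was at 153.5 TPM in it. There is no replicate of this cell.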

How the results depend on the processing

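Counts of calls are given in the order radial glia-like against excitatory-like, Eomes-positive against excitatory-like, radial glia-like against Eomes-positive, and radial glia-like against interneuron-like cells. As reported, they were 0, 0, 0 and 0 of the members and 9, 2, 11 and 119 of all features. Without radial glia-like cells at 100 TPM of Neurod6 or more, 3, 0, 1 and 4 members and 486, 0, 76 and 591 features were called. At 6 of 8 markers these were 1, 0, 0 and 1 members (Ednrb) and 102, 0, 24 and 264 features. At 4 of 8 markers no member and 0, 44, 2 and 104 features were called. Weighting by cells gave 1, 0, 0 and 0 members (Ednrb, 1.93) and 121, 91, 4 and 100 features. Division by the floor gave 1 member, Fgfr3, against interneuron-like cells and 9, 2, 7 and 169 features, and quantile normalization the same member and 15, 7, 8 and 171 features. No member was called in the following: log2 of mean TPM (29, 23, 0 and 88 features), no filter (0, 1, 3 and 96), pseudocount 10 (10, 4, 9 and 115), at least 3500 features per cell (1, 0, 0 and 74), mark A only (0, 0, 0 and 16), pool and mark as the unit (5, 0, 7 and 118), radial glia-like before Eomes (10, 0, 3 and 88), and 5 of 8 excitatory markers (10, 2, 12 and 126). The replicate block, which pairs the classes of a pool, changed no member's call: Ednrb stayed at 1.98 (limma adjusted p = 0.110), with 8, 2, 12 and 130 features. The last 3 alternatives were added after seeing the data. Without cells with Olig1, Olig2 or Pdgfra, 0 members and 0, 1, 4 and 87 features were called. With more glial than neuronal markers these were 1, 0, 0 and 1 members (Ednrb and Fgfr3) and 44, 0, 12 and 164 features. At 7 of 8 markers, a limit chosen with the members' values in view and so no support for them, they were 4, 0, 1 and 3 members and 460, 0, 78 and 555 features.

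The sign of Ednrb, Fgfr2, Fgfr3, Etv5, Lifr, Il6st and Stat3 in radial glia-like against excitatory-like neurons held in all 18 alternatives, with Ednrb from 1.05 to 4.47, that of Fgfr1 in 17, Spry2 in 16 and Spry1 in 13. The cause of these changes was not tested. With a single pool no test is possible, since no residual degrees of freedom remain between pools of a class: Ednrb was 2.25 in pool 1 and 1.71 in pool 2. Genes at the floor may be present below detection, and 2 pools leave small differences undetected.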
